A study of Mus musculus with 7 samples.

Results

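The 10 T and innate lymphoid cell genes described here are Cd3d, Cd3e, Cd3g, Lck, Zap70, Trbc2, Gata3, Il2rb, Tbx21 and Rora, found by gene symbol among the 48440 genes of the deposited table. RNA was sequenced from LSK cells, the lineage-negative, Sca1+ and cKit+ bone marrow (BM) cells that contain hematopoietic stem cells (HSCs) and multipotent progenitors, in 7 libraries, 4 of them wild-type and 3 PROSER1 KO. The wild-type group held LSK cells from recipients of wild-type BM, and the PROSER1 KO group held LSK cells from recipients of BM of mice with a constitutive, endonuclease-mediated deletion of Proser1. All recipients were lethally irradiated C57BL/6 mice (9.5 Gy in 2 doses 3 hours apart), and cells were harvested at day 77 after the transplant. The age of the donors in this experiment and whether each library came from 1 recipient or from a pool were not given in the sources used here. The study lists antibodies to CD3, B220 and TER119 among others, and which of them made up the lineage stain of this sort was not given in the sources used here. The comparison addresses how the loss of PROSER1 in the graft changes expression in the stem and progenitor compartment.

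The T cell receptor has no signalling domain of its own. Its chains are assembled with the CD3 chains, whose tails are phosphorylated by the kinase LCK and then bound by the kinase ZAP70. Innate lymphoid cells (ILCs) and natural killer (NK) cells lack a rearranged receptor but share regulators with T cells, among them GATA3, T-bet (encoded by Tbx21) and ROR alpha (encoded by Rora), and the interleukin-2 and interleukin-15 receptor chain encoded by Il2rb. LSK cells are sorted as progenitors, some of which can give rise to lymphoid cells, and transcripts of lymphoid genes can be found in such populations.

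Values are normalized counts, which are read pairs per gene divided by 1 size factor per library. Each library held 33143619 to 45140743 read pairs on genes, so that 3 read pairs, the limit that a count of 0 allows for counting error, equal 2.54 to 3.48 normalized counts. The test was limma on log2(normalized count + 1), run for the 16251 genes whose mean reached 10, and a gene was called at a Benjamini-Hochberg adjusted p under 0.05 with a fold change above 1.5. Log2 fold changes are PROSER1 KO minus wild-type, and those of genes with low counts are understated on this scale. Proser1 mRNA itself was not lower in the libraries labelled PROSER1 KO. The wild-type libraries had 2019, 2153, 2103 and 2077 (replicates 1 to 4, the order kept throughout), and those labelled PROSER1 KO had 2464, 2359 and 2338 (replicates 1 to 3), so that directions rest on the labels alone. The 10 markers of the LSK gate and of stem cells were above 0 in all 7 libraries. Their summed level was 111873 to 125356 in wild-type and 112036 to 115985 in PROSER1 KO. Of the 10, 0 were called, against 0.258% of all genes tested. Among them, 1 gene (Mecom) did not overlap, at 2683 to 3030 in wild-type and 2160 to 2610 in PROSER1 KO (limma, adjusted p = 0.282). Over all genes tested, 4.83% were lower in this way. Transcripts of mature lymphoid cells were abundant in the same libraries. The 8 plasma cell markers summed to 172205 to 432130 in wild-type and to 201084 to 300831 in PROSER1 KO. Most of this was Jchain, at 151607 to 384345 in wild-type and 179939 to 269328 in PROSER1 KO. The part of such cells in the values of the 10 genes was not tested. Replicates were separate samples by their labels, and p-values measure the spread between these samples.

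The 3 CD3 genes lie side by side on chromosome 9 (GRCm38), within 40.06 kb. Cd3g (44969572 to 44980431, reverse strand) and Cd3d (44981786 to 44987339, forward strand) are transcribed away from each other from start sites 1355 bases apart, and Cd3e (44998740 to 45009627, reverse strand) is read toward Cd3d. Their RefSeq promoter windows (build GRCm38.p6, 250 bases before to 50 after the start) are shown because these 3 genes had the most uneven values of the 10 across libraries. The windows are chr9:44980382-44980681 (reverse), chr9:44981536-44981835 (forward) and chr9:45009562-45009861 (reverse), printed 5′ to 3′ along the gene. Capitals mark matches, on either strand, to the E-box letters CAGCTG or CAGGTG, the TCF/LEF letters CTTTGA, the GATA letters AGATAA, the ETS letters GGAAGT, the RUNX letters TGTGGT and the T-box letters AGGTGT, some of which run into each other.

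Cd3g: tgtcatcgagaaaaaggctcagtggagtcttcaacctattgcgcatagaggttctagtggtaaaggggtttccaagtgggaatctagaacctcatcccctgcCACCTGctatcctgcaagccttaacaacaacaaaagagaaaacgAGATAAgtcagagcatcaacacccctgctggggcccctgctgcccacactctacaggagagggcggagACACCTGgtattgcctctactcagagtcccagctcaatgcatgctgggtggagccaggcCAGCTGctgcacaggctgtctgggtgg
Cd3d: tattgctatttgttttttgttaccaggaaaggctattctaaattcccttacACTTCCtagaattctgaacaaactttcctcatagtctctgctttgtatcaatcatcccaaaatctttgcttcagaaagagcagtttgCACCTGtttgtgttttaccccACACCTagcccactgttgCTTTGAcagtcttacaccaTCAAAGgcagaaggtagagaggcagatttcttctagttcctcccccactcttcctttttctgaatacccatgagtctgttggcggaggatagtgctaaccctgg
Cd3e: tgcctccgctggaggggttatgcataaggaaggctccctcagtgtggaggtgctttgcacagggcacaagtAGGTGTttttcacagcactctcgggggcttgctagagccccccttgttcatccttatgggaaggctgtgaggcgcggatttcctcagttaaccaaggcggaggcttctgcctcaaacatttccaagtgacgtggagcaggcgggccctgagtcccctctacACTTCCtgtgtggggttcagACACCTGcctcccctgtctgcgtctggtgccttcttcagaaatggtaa

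The Cd3g window held 3 E-box matches, 1 GATA match and 1 T-box match. The Cd3d window held 2 TCF/LEF matches and 1 each for the E-box, ETS and T-box letters, and the Cd3e window held 2 T-box matches and 1 each for the E-box and ETS letters. The E-box CAGGTG and the T-box AGGTGT share 5 letters, so that a single stretch can count for both. Of the 10 genes, 8 had an entry in the RefSeq table, with 11 windows in all, and Il2rb and Trbc2 had none. Zap70 and Lck had more than 1 window each, so that the 11 windows do not stand for 11 separate genes. The E-box letters occurred in 9 of these 11 windows and in 32.9% of all 32851 windows of the same length. The ETS letters occurred in 6 of 11 (23.8% of all windows), the T-box letters in 3 (13.7%), the TCF/LEF and RUNX letters in 2 each (16% and 16.8%), and the GATA letters in 1 (11.2%). These matches describe the letters and do not show binding.

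The CD3 genes had few reads in most libraries and were high in 1 library labelled PROSER1 KO. Cd3g, which encodes the gamma chain, had normalized counts of 52.9, 23.4, 24.1 and 20.9 in the wild-type libraries and 697, 24.5 and 38.4 in the PROSER1 KO libraries. The groups overlapped, and PROSER1 KO replicate 1 stood 13.2-fold above the highest of the other 6 libraries (668 read pairs against 18 to 55). Cd3e, the epsilon chain that pairs with both others, had 24.0, 6.31, 5.75 and 15.1 in the wild-type libraries and 197, 8.46 and 11.5 in the PROSER1 KO libraries. The groups overlapped again, with PROSER1 KO replicate 1 standing 8.20-fold above the next library. Cd3d, the delta chain, had 19.2, 1.80, 4.60 and 6.96 in the wild-type libraries and 106, 2.54 and 21.1 in the PROSER1 KO libraries. PROSER1 KO replicate 1 was 5.04-fold above the next library here, and wild-type replicate 2 (2 read pairs) and PROSER1 KO replicate 2 (3 read pairs) were at or under the limit of 3 read pairs. In bulk RNA, more cells of a type and more RNA per cell cannot be told apart.

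None of the 3 CD3 differences passed the test. The fitted log2 fold changes were 1.61 for Cd3g (standard error 0.98, adjusted p = 0.633 from limma), 1.27 for Cd3e (standard error 1.00, adjusted p = 0.721) and 1.52 for Cd3d (standard error 1.08, adjusted p = 0.695). Without PROSER1 KO replicate 1 the value of Cd3g fell to 0.12 and that of Cd3e turned to -0.12, while the mean of Cd3d fell to 9.37, under the minimum of 10, so that Cd3d was tested only through that library. The fitted values were larger on the recovered read pairs, at 3.04 for Cd3g, 2.47 for Cd3e and 2.37 for Cd3d with edgeR (adjusted p = 0.368, 0.473 and 0.500) and at 3.06, 2.498 and 2.41 with DESeq2, which gave no p-value for Cd3g and Cd3e and an adjusted p of 0.574 for Cd3d. Over the 16251 genes tested, Cd3g ranked 1st, Cd3e 3rd and Cd3d 9th by the ratio of PROSER1 KO replicate 1 to the highest of the other 6 libraries. The other genes among the first 10, chosen by that ratio after values had been seen, were Mpzl2, Trgc2, 5830411N06Rik, Trdc and 3 immunoglobulin kappa variable genes.

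The shares of the 3 chains per kb of exon in PROSER1 KO replicate 1 lay within those of the other libraries. Of the summed level per kb, Cd3g made up 66.6% there, Cd3d 18.3% and Cd3e 15.1%. In the other 6 libraries Cd3g made up 44.8% to 73.8%, Cd3d 10.2% to 44.4% and Cd3e 10.8% to 26.6%, on 30 to 100 read pairs for the 3 genes together against 959. The summed level per kb was 320.1 in PROSER1 KO replicate 1 and 9.71 to 32.7 in the other libraries. Cd3e shares 135 exon bases with the antisense gene Gm48719, and whether counting used the strand is not given in the sources used here.

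Trbc2, the constant part of the receptor's beta chain, had a smaller excess in the same library. Its levels were 250.02, 165, 138 and 117 in the wild-type libraries and 395, 88.0 and 86.4 in the PROSER1 KO libraries. PROSER1 KO replicate 1 was the highest library and PROSER1 KO replicates 2 and 3 were the lowest of the 7, on both sides of the wild-type range. From limma, the log2 fold change over all libraries came to -0.15 (adjusted p = 0.953, standard error 0.50), and to -0.87 (adjusted p = 0.389) without PROSER1 KO replicate 1. The direction depended on the tool, since edgeR and DESeq2 gave 0.17 and 0.18. Trbc2 (chromosome 6, 41546730 to 41548352, forward strand) is 95.6% identical to Trbc1 over 521 aligned bases, so that reads could be split between them, and Trbc1 had 405, 270.4, 198 and 177 in the wild-type libraries and 722, 173 and 228 in the PROSER1 KO libraries.

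The kinases of the receptor varied less between libraries than the CD3 chains, and in wild-type both had more normalized counts per kb than any CD3 chain. Lck, the kinase that phosphorylates CD3 tails, had 2122, 1642, 1624 and 1536 in the wild-type libraries and 2230.3, 1338 and 1282 in the PROSER1 KO libraries. The groups overlapped only through PROSER1 KO replicate 1, the highest of the 7, while the other PROSER1 KO libraries were below every wild-type library. Zap70, the kinase recruited next, had 294, 161, 167 and 187 in the wild-type libraries and 248, 124 and 134 in the PROSER1 KO libraries. Again PROSER1 KO replicates 2 and 3 lay below the wild-type range, and wild-type replicate 1 was the highest of all. The log2 fold changes were -0.13 for Lck (standard error 0.19, adjusted p = 0.873) and -0.29 for Zap70 (standard error 0.28, adjusted p = 0.789, both from limma). Without PROSER1 KO replicate 1 they were -0.39 (adjusted p = 0.357) and -0.60 (adjusted p = 0.514), which did not pass either. Lck lies on chromosome 4 (129548344 to 129573641, reverse strand) and Zap70 on chromosome 1 (36761798 to 36782818, forward strand).

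**Figure D1:**
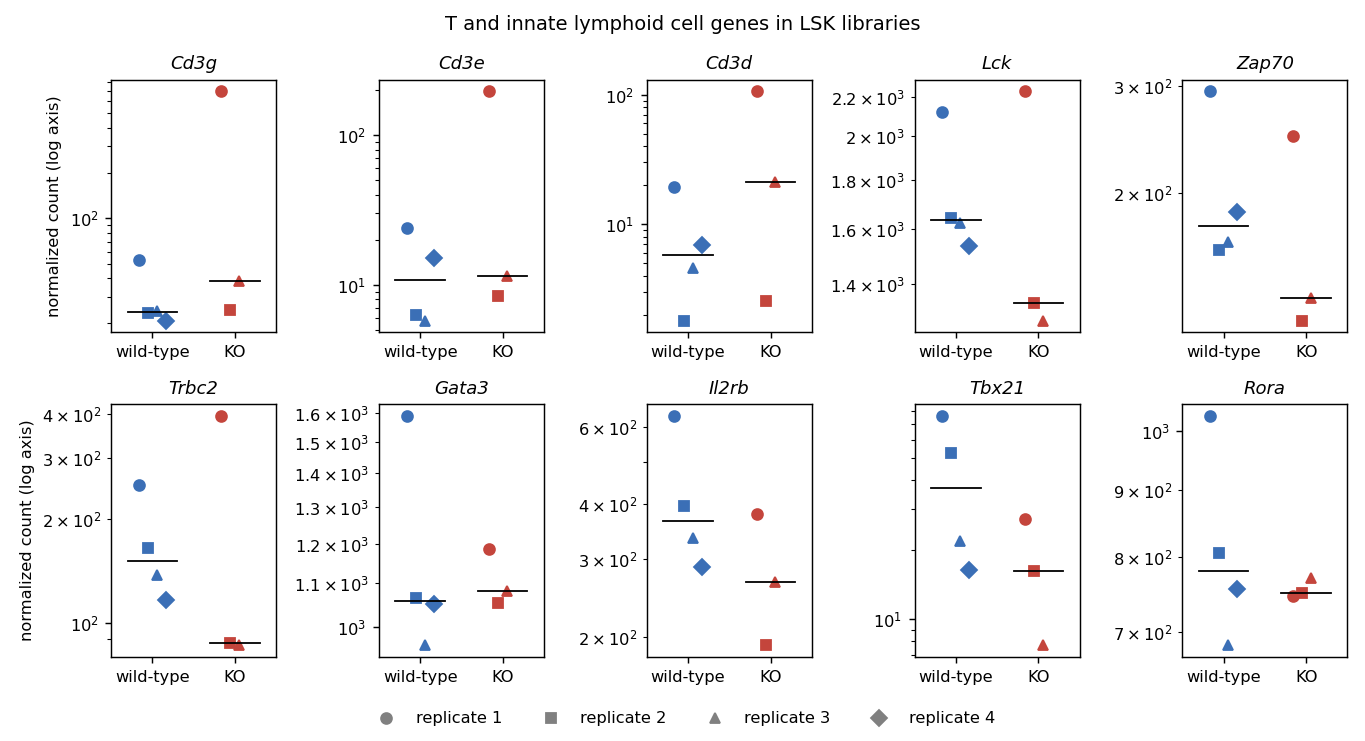
Normalized counts (log axis, different range in each panel) of the 10 genes in 4 wild-type (blue) and 3 PROSER1 KO (red) libraries, with symbols for replicates and black lines at the group medians. Replicate 1 of wild-type is the highest wild-type library in all 10 panels, and replicate 1 of PROSER1 KO is far above the others for Cd3g, Cd3e and Cd3d.

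The regulators and the cytokine receptor chain peaked in wild-type replicate 1 rather than in PROSER1 KO replicate 1. Gata3, a transcription factor needed for T cells and ILCs, had 1589, 1065, 959.8 and 1050.3 in the wild-type libraries and 1187, 1054 and 1082 in the PROSER1 KO libraries. Only wild-type replicate 1 stood clear, and the other 6 libraries lay within 959.8 to 1187. Rora, which encodes a nuclear receptor required for group 2 ILCs, had 1027, 805, 684 and 756 in the wild-type libraries and 746, 751 and 771 in the PROSER1 KO libraries. The 3 PROSER1 KO values lay inside the wild-type range. Fitted log2 fold changes were -0.05 for Gata3 (standard error 0.15, adjusted p = 0.953) and -0.10 for Rora (standard error 0.12, adjusted p = 0.854, both from limma), and both turned positive without wild-type replicate 1, at 0.11 and 0.018. Gata3 lies on chromosome 2 (9857078 to 9890034, reverse strand) and shares 155 exon bases with the antisense gene Gm13256, and Rora lies on chromosome 9 (68653786 to 69388246, forward strand) and shares 82 with Gm15511, which was at 0.

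Il2rb and Tbx21, which mark NK cells and type 1 lymphoid cells, were lower on average in PROSER1 KO without passing the test. Il2rb had 635, 397, 336 and 287 in the wild-type libraries and 379.7, 191 and 266 in the PROSER1 KO libraries. PROSER1 KO replicates 2 and 3 were below every wild-type library, and PROSER1 KO replicate 1 was within the wild-type range. Tbx21, the regulator of interferon gamma production, had 76.0, 52.3, 21.8 and 16.2 in the wild-type libraries and 27.1, 16.1 and 7.68 in the PROSER1 KO libraries. The wild-type libraries spread widely (SD 27.9 around a mean of 41.6, n = 4), and the lowest of them was level with PROSER1 KO replicate 2. The log2 fold changes were -0.56 for Il2rb (standard error 0.29) and -1.15 for Tbx21 (standard error 0.60), each with an adjusted p of 0.577 from limma. These had the smallest p-values of the 10 genes, and without PROSER1 KO replicate 1 the values were -0.81 (adjusted p = 0.445) and -1.55 (adjusted p = 0.514). Il2rb lies on chromosome 15 (78479256 to 78495271) and Tbx21 on chromosome 11 (97098071 to 97115331), both on the reverse strand.

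Of the 10 genes, 0 were called with limma, against 0.258% of all genes tested, and 0 were at an unadjusted p under 0.05, against 9.73%. By edgeR and DESeq2 on the recovered read pairs 0 of the 10 were called as well, where the backgrounds were 0.246% and 0.873%. The groups overlapped for all 10, whereas 4.83% of genes tested were lower in every PROSER1 KO library than in every wild-type library and 5.17% were higher. The median log2 fold change of the 10 was -0.12, beside 0.00 over all genes tested. With PROSER1 KO replicate 1 left out, 5 of the 10 (Lck, Zap70, Trbc2, Il2rb and Tbx21) were lower in both remaining PROSER1 KO libraries than in every wild-type library, against 9.32% of all genes, and 0 of the 10 were higher. The same 5 remained so when wild-type replicate 1 was left out too (11.7% of all genes), and Tbx21 was among them by a margin of 16.1 against 16.2. The median of the 9 genes then tested was -0.39 without PROSER1 KO replicate 1, and 0 of the 9 were called. PROSER1 KO replicate 1 was the highest PROSER1 KO library for 9 of the 10 genes, against 33.6% of all genes tested. Leaving it out therefore moves these genes toward lower values more often than other genes. The count of 5 was not repeated with any other PROSER1 KO library left out. The shares of 9.32% and 11.7% are thus no neutral background, and the count is a description only.

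**Figure D2:**
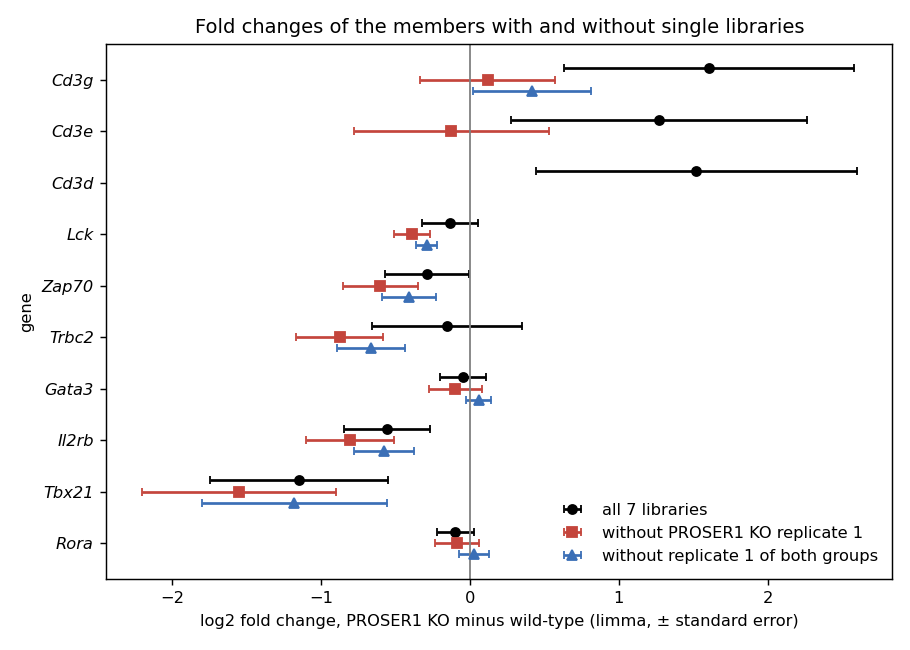
Log2 fold change of each gene (limma, PROSER1 KO minus wild-type, bars are standard errors) with all 7 libraries, without PROSER1 KO replicate 1, and without replicate 1 of both groups. The CD3 values are 1.27 to 1.61 with all libraries, and -0.12 to 0.42 in the other fits or missing there because the mean falls under the filter. Lck, Zap70, Trbc2, Il2rb and Tbx21 are below 0 in the 3 fits shown. Both fits with libraries left out lack PROSER1 KO replicate 1, the highest PROSER1 KO library for each of these genes. In fits not shown, Trbc2 was at 0.20 without PROSER1 KO replicate 2. Without PROSER1 KO replicate 3, Trbc2 was at 0.22 and Lck at 0.0087.

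The genes differed widely in level per kb of exon. In wild-type, Lck was highest at 591 ± 90.4 (SD, n = 4) normalized counts per kb. It was followed by Gata3 (293 ± 71.8) and Trbc2 (242 ± 84.4), whose ranges overlapped, then by Il2rb (96.5 ± 35.9), Zap70 (67.6 ± 20.8) and Rora (62.6 ± 11.3), each overlapping its neighbour. Tbx21 (16.7 ± 11.2), Cd3g (9.28 ± 4.62), Cd3d (4.49 ± 4.23) and Cd3e (3.14 ± 2.11) came last and overlapped from each to the next. The ranges of Lck and Gata3, of Trbc2 and Il2rb, and of Rora and Tbx21 did not overlap. In PROSER1 KO replicate 1 Cd3g reached 213 normalized counts per kb.

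All 10 genes were highest of the wild-type libraries in replicate 1, which was the highest wild-type library for 22.5% of all genes tested. In the PROSER1 KO group 9 of the 10 were highest in replicate 1 (33.6% of all genes), and the exception was Rora. Over all 7 libraries, Cd3g, Cd3e, Cd3d, Lck and Trbc2 peaked in PROSER1 KO replicate 1 and Zap70, Gata3, Il2rb, Tbx21 and Rora in wild-type replicate 1. These shares were 15.5% and 12.8% over all genes tested. The genes are not independent of each other, and the shares are given as a description. Wild-type replicate 1 was also the highest library for the immediate early genes Fos, at 11476 against 1557 to 4188 elsewhere, and Egr1, at 2871 against 469 to 1059, which were picked from the genes with the largest excess there. The part of these in the values of the 10 genes was not tested.

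Some other genes of the receptor and of early T cell development also peaked in PROSER1 KO replicate 1. That was so for 10 of the 22 genes tested of the T cell receptor signalling list and for 3 of the 9 of the T lineage regulators (Tcf7, Bcl11b and Rag1), against 15.5% of all genes tested, whereas Tox was lowest of the 7 there (844 against 894 to 1159). In the same lists 7 of the 22 and 1 of the 9 peaked in wild-type replicate 1, against 12.8% of all genes tested. The genes given next were picked after their values had been seen. Trgc2, a gamma constant gene whose reads could be shared with the other gamma constant genes, had 90.4, 64.9, 54.0 and 46.4 in the wild-type libraries and 597, 27.9 and 23.04 in the PROSER1 KO libraries. Trdc, the delta constant gene, had 74.0, 74.8, 59.8 and 48.7 in the wild-type libraries and 373, 89.7 and 65.3 in the PROSER1 KO libraries. Both stood clear in that single library. Ptcra, which encodes the pre-T cell receptor alpha chain of immature thymocytes, had 20 read pairs there and 0 in the other 6 libraries. Tcf7, a regulator of early T cells, was at 1480.3 against 514 to 979, Bcl11b, a factor of T lineage commitment, at 611 against 124 to 407, and Il2ra, the interleukin-2 receptor alpha chain, at 1126 against 118 to 541.

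Markers of mature T cells were split. Of the 10 genes on that list, which includes Cd3d, Cd3e, Cd3g and Trbc2, these 4 and Cd8a were highest in PROSER1 KO replicate 1 (5 of 10, against 15.5% of all genes tested) and 0 were at 0 in all libraries. Their summed level was 936 to 1948 in wild-type and 739.6 to 2346 in PROSER1 KO, with the highest sum of the 7 libraries in PROSER1 KO replicate 1. That sum includes the 4 genes shared with the members, of which Cd3g alone was at 697 there. Neither the sum nor the count of peaks is therefore separate from their excess. Cd4 was at 170.0 in PROSER1 KO replicate 1 against 200.02 to 287 in wild-type, Cd8a at 33.4 against 11.5 to 31.7, and Trac, the alpha constant gene, at 25.04 against 16.1 to 26.0. Cd5 and Cd28 were at 93.9 and 619, inside the wild-type ranges of 42.5 to 116 and 443 to 1362. B lineage markers were highest in that library for 5 of 10 genes, among them Pax5 (303 against 55.6 to 169.9), and their summed level was 4388 to 8690 in wild-type and 4559 to 7303 in PROSER1 KO. The part of other cell types in these values was not tested.

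**Figure D3:**
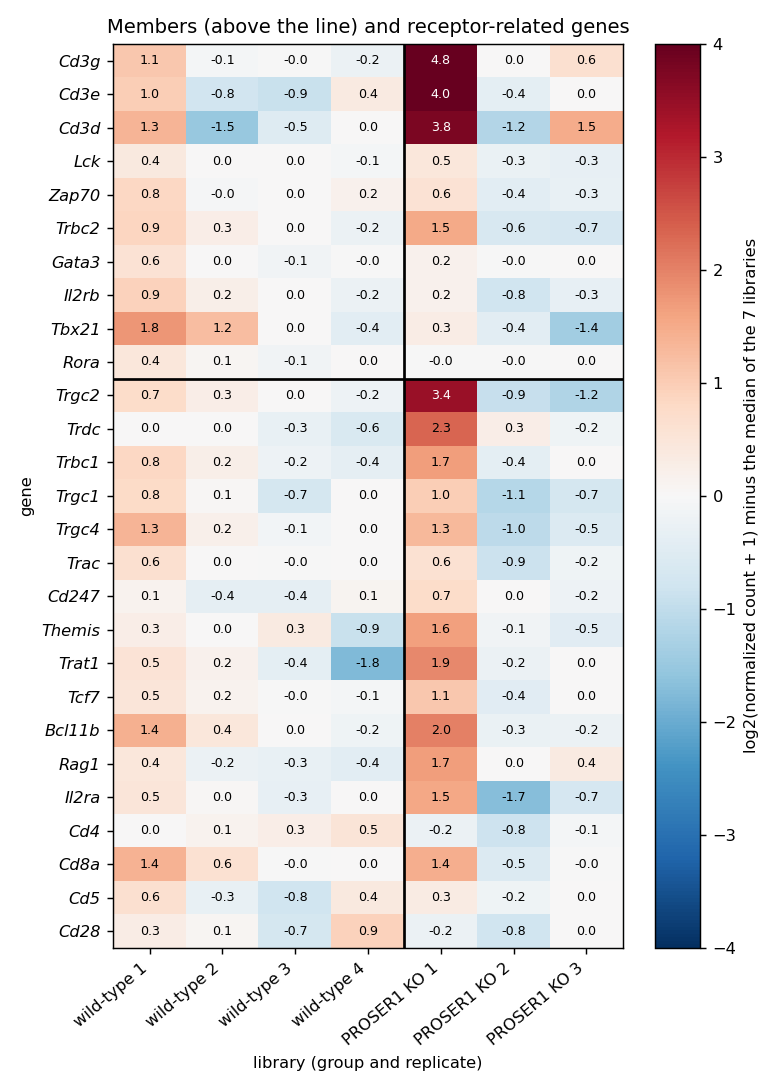
Log2(normalized count + 1) minus the gene's median over the 7 libraries, for the 10 genes (above the line) and for 17 genes of the receptor, early T cell development and mature T cells, picked after values had been seen. PROSER1 KO replicate 1 is high for Cd3g, Cd3e, Cd3d, Trgc2 and Trdc, and not for Cd4, Cd5 or Cd28.

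The genes most like the members differed between the receptor and the regulator groups. For the mean of the standardized values of Cd3d, Cd3e, Cd3g, Lck, Zap70 and Trbc2 over 7 libraries, the 5 nearest protein-coding genes were Tcf7 (Pearson r = 0.96, Spearman rho 0.68), Tapt1 (0.96 and 0.75), H2-Ob (0.96 and 0.89), Aim2 (0.96 and 0.96) and Tlr9 (0.96 and 0.82). With PROSER1 KO replicate 1 left out, r was 0.87 to 0.91 for these. For Gata3, Il2rb, Tbx21 and Rora they were Eif3a (0.97 and 0.96), Yrdc (0.96 and 0.89), Washc2 (0.96 and 0.96), Setd3 (0.96 and 0.86) and Pelo (0.95 and 0.93), and r without wild-type replicate 1 was 0.79 to 0.90. With 7 libraries and 16251 genes searched, such values are a description only.

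In 7 lists of related genes, 112 genes in all and 98 tested, 2 genes were called, Ccr6 and Lta, and both were lower in PROSER1 KO (0.135% of all genes tested were called in this direction). Several of these genes are in the study's own list of changed genes, so that the lists are not independent of these libraries. Ccr6, a chemokine receptor of group 3 ILCs and some T and B cells, had 183, 127, 159 and 122 in the wild-type libraries and 41.7, 46.5 and 24.0 in the PROSER1 KO libraries. Lta, which encodes lymphotoxin alpha, had 82.7, 68.5, 57.5 and 115 in the wild-type libraries and 22.9, 22.8 and 24.0 in the PROSER1 KO libraries. In both the groups were apart, and PROSER1 KO replicate 1 lay with the other PROSER1 KO libraries. Ccr6 fell by 1.98 on the log2 scale (standard error 0.27, adjusted p = 0.0199 from limma) and Lta fell by 1.71 (standard error 0.28, adjusted p = 0.0483 from limma). With wild-type replicates 1, 2 or 3 left out the adjusted p of Ccr6 was 0.0767, 0.0536 or 0.0521, and Lta passed with 1 of the 7 libraries left out, wild-type replicate 3 (adjusted p = 0.0474). Without replicate 1 of both groups the adjusted p was 0.149 for Ccr6 and 0.344 for Lta.

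The group 3 innate lymphoid list, 9 of whose 12 genes were tested, had 6 genes lower in every PROSER1 KO library than in every wild-type library, among them Il23r, Ccr6, Lta, Ltb and Cxcr5 (4.83% over all genes tested), and its median log2 fold change was -0.74. Il23r, the interleukin-23 receptor, had 63.5, 35.2, 41.4 and 49.8 in the wild-type libraries and 6.26, 26.2 and 9.60 in the PROSER1 KO libraries (limma, log2 fold change -1.89 and adjusted p = 0.195). It did not pass with limma and was called with DESeq2 (adjusted p = 0.0358).

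The group 2 innate lymphoid list, with 12 of 17 genes tested and 0 called, had a median log2 fold change of -0.77, and 2 of its genes (Nmur1 and Klrg1) were lower without overlap and 1 (Hpgds) higher, beside 4.83% and 5.17% of all genes tested. Nmur1, the neuromedin U receptor of group 2 ILCs, had 126, 83.8, 75.9 and 62.6 in the wild-type libraries and 19.8, 33.0 and 26.9 in the PROSER1 KO libraries (limma, log2 fold change -1.66 and adjusted p = 0.0716). Il9r had a log2 fold change of -0.85 (adjusted p = 0.353) and Hpgds, a prostaglandin D synthase, one of 0.43 (adjusted p = 0.380). The median of this list was -0.46 without replicate 1 of both groups, where that of the group 3 list was -0.79. Wild-type replicate 1 was the highest library for 8 of the 12 genes tested here and for 5 of the 9 in the group 3 list. Its share was 12.8% over all genes tested. In the NK and type 1 list, 22 of 23 genes were tested with 0 called and a median of -0.08. Log2 fold changes were above 0 for 8 of the 22 and below 0 for 14, and 11 of the 22 peaked in wild-type replicate 1. In this list 2 genes were lower without overlap and 1 (Prf1) was higher, beside 4.83% and 5.17% of all genes tested. Klrb1b, an NK receptor, had 232, 169, 201.1 and 151 in the wild-type libraries and 104, 66.0 and 81.6 in the PROSER1 KO libraries (log2 fold change -1.16, adjusted p = 0.0787). Il18r1, the interleukin-18 receptor, had a log2 fold change of -0.64 (adjusted p = 0.148) and Il12rb1, the interleukin-12 receptor chain, one of -0.16 (adjusted p = 0.486).

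The T cell receptor signalling list had 22 of 25 genes tested, 0 called and a median of -0.15. Among its smallest p-values were those of Txk, a Tec family kinase (log2 fold change -0.96, adjusted p = 0.135), and of Cd4 (-0.61, adjusted p = 0.374), both from limma. Txk had 137, 142, 102 and 107 in the wild-type libraries and 69.9, 51.6 and 64.3 in the PROSER1 KO libraries, without overlap, unlike Lck and Zap70. The T lineage regulators (9 of 11 tested, 0 called, median 0.02) had Tox (-0.26, adjusted p = 0.261), Zbtb7b (-0.34, adjusted p = 0.414) and Rag1 (0.80, adjusted p = 0.512) as the smallest, and Rag1 was at 2919.8 in PROSER1 KO replicate 1 against 686 to 1239.5 elsewhere. The regulators of ILC progenitors (12 of 12 tested, 0 called, median 0.02) had Id2, an inhibitor of E proteins, at 1104, 720.3, 640.2 and 659.6 in the wild-type libraries and 523, 441 and 459 in the PROSER1 KO libraries (log2 fold change -0.69, adjusted p = 0.213). Tox2 (-0.44, adjusted p = 0.614) and Pdcd1 (-0.44, adjusted p = 0.786) followed. In the common gamma chain list (16 of 16 tested, 0 called, median -0.05) the smallest were Il9r, Il21r (0.15, adjusted p = 0.546) and Il2rg, the common gamma chain (-0.11, adjusted p = 0.614).

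DESeq2 called 11 genes of these lists, all lower in PROSER1 KO, against 0.873% of all genes with an adjusted p. Among them were Ccr6, Lta, Il23r, Nmur1, Il9r, Klrb1b, Il18r1, Id2 and Txk, and edgeR called Ccr6 alone. None of these 11 is among the 10 T and innate lymphoid cell genes. Over the 98 related genes tested, 14 were lower in every PROSER1 KO library and 2 were higher, beside 4.83% and 5.17% of all genes tested.

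**Figure D4:**
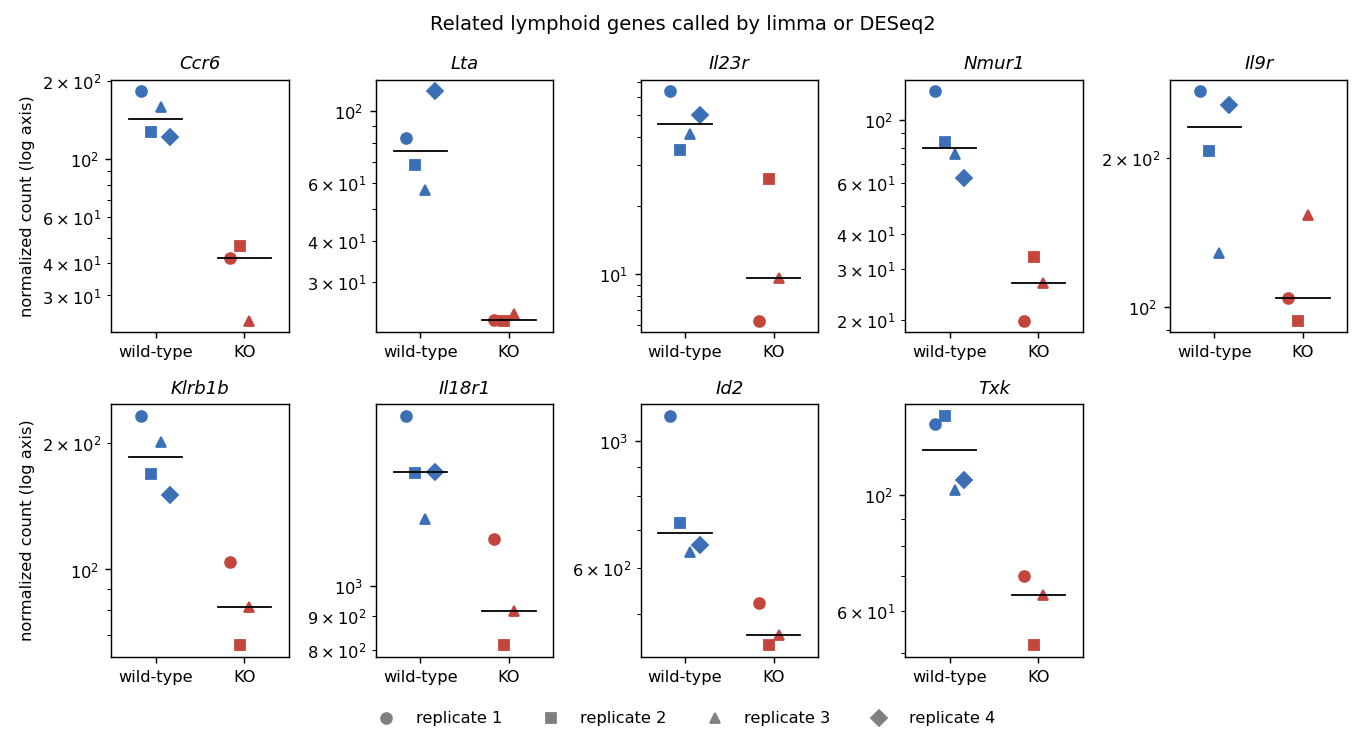
Normalized counts (log axis, different range in each panel) of 9 related genes called by limma or DESeq2, in 4 wild-type (blue) and 3 PROSER1 KO (red) libraries, with symbols for replicates and black lines at the group medians. The groups do not overlap for 8 of the 9, the exception being Il9r, and PROSER1 KO replicate 1 is not set apart as it is for the CD3 genes.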

How the data were processed

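The 4 wild-type and 3 PROSER1 KO libraries of sorted LSK cells were grouped by their labels. Per the methods and the submitters' processing notes, Trimmomatic was used to trim the reads, STAR to map them to mm10 and featureCounts to count pairs per gene, and the authors then divided the counts by DESeq2 size factors (versions not given in the sources used here). The deposited values are thus a normalized signal per gene without a filter on low values. There were 0 columns of other samples. The smallest step of a library gave back its read pairs (100% of values whole within 0.01 read pairs). Libraries held 33143619 to 45140743 read pairs on genes, and limits from a count of 0 cover counting error only. Genes without a symbol (685) were kept.

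Differences were tested with limma 3.58.1 under R 4.3.3 (functions lmFit and eBayes, the latter with trend) on log2(normalized count + 1) for genes with a mean of at least 10, with Benjamini-Hochberg adjustment over all 16251. All 10 members passed this filter, so the exact permutation test planned for members under it was not needed. Other settings tried were a pseudocount of 0.1 or 10, a minimum mean of 50 or none, no trend, robust variances, TMM, edgeR 4.0.16 (quasi-likelihood) and DESeq2 1.42.0 on read pairs, the replicate number as a block and each library left out. Leaving out replicate 1 of both groups was added after values had been seen. Procedures were tested on simulated data.

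The members, the 7 related lists and the marker lists were chosen with earlier results of these data known. Named genes were all members, Proser1, and from each related list the called genes and the 3 with the smallest p, plus the 5 protein-coding genes nearest to each member group by Pearson correlation. Others were named after their values had been seen. Some genes that the rule names are not reported here, and counts over lists include them. Exon lengths and positions come from GENCODE M21 (GRCm38), which held all 10 members and 48058 of 48440 IDs, while the methods name release M25. Promoter windows come from RefSeq (GRCm38.p6).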

Additional observations from a re-analysis of the deposited data

Results flagged for a closer look

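In 2 of the 31 named genes checked, wild-type replicate 1 lay far from the other wild-type libraries, with a gap, as a share of the range of the 4 libraries, above the 95% limit of Dixon's test. Cd3g was at 52.9 there and at 20.9 to 24.1 in the other 3, a gap of 0.898 of the range. Gata3 was at 1589 there and at 959.8 to 1065 in the other 3, a gap of 0.833. Chance flags about 1 in 20 groups, and the PROSER1 KO group with 3 libraries was not checked in this way.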

How the results depend on the processing

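None of the 10 members was called under any alternative, including the added omission of replicate 1 of both groups. Of 174 values of single members under the alternatives, 163 kept the direction and 11 changed it, with adjusted p-values of 0.26 to 0.995 where there was one. The log2 fold change of Trbc2 was 0.17 with edgeR and 0.18 with DESeq2. Leaving out single libraries gave -0.87 to 0.22 for Trbc2 (0.060 without wild-type replicate 1), -0.12 to 2.07 for Cd3e (lowest without PROSER1 KO replicate 1), -0.39 to 0.0087 for Lck (highest without PROSER1 KO replicate 3), -0.13 to 0.11 for Gata3 and -0.18 to 0.018 for Rora (both highest without wild-type replicate 1). Without replicate 1 of both groups Gata3 was at 0.061 and Rora at 0.027. The cause was not tested.

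The 42 genes called over all genes became 17 without the trend, 80 with robust variances, 165 with DESeq2 (80 higher and 85 lower), 23 to 42 with single libraries left out and 13 without replicate 1 of both groups. The 2 related genes called became 1 without a filter, with a minimum mean of 50 and with edgeR, 0 without the trend, 4 with robust variances, 11 with DESeq2, 0 to 1 with single libraries left out and 0 without replicate 1 of both groups.

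With the replicate number as a block, 35 genes were called over all genes, 0 members and 0 related genes (2 without it). Over the genes tested, the deviations of same-numbered libraries from their group means had correlations of 0.023, 0.058 and -0.106. Those of other pairs were -0.131 to 0.142. Such values cannot show whether same-numbered libraries shared a batch, which the labels do not give. Depth limits Cd3d most, with 2 to 22 read pairs outside PROSER1 KO replicate 1.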
